A study of Mus musculus with 12 samples.

Results

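The genes described here are 8 of the 21887 protein-coding genes on mouse chromosomes 1 to 19, X and Y, and encode proteins that define a simple epithelium: the adhesion molecules Epcam and Cdh1, the splicing regulators Esrp1 and Esrp2, and the keratins Krt7, Krt8, Krt18 and Krt19. They were chosen by name. Every peak of 9 deposited CUT&RUN peak lists that overlapped one of these genes or the 50 kb on either side was collected, which gave 582 of 487413 peaks. Of these, 331 had a member as the protein-coding gene with the nearest annotated end and are called linked.

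CUT&RUN uses an antibody to direct a nuclease to chromatin, so that DNA near the bound protein is cut and released. The cells were EpCAM+ epithelial cells from the pooled lungs of E17.5 (late gestation) fetuses of the C57Bl6 strain, wild type, selected with magnetic beads, with 100000 cells per reaction. Lists were available for NKX2-1 (3 libraries, rabbit antibody), PRDM16 (2 libraries, replicate 1 with a rabbit and replicate 2 with a sheep antibody), PRDM3 (1 library, rabbit antibody) and the histone mark H3K4me3 (3 libraries, rabbit antibody). The 3 IgG control samples (2 rabbit, 1 sheep) were not analysed here. All groups share 1 genotype, stage and cell selection, so each comparison is between antibodies or between genes and none is between conditions. Since the beads select for the product of Epcam, the presence of that gene's product in these cells is part of the preparation.

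In epithelial sheets E-cadherin, the product of Cdh1, joins neighbouring cells at adherens junctions, and EpCAM is a homophilic surface glycoprotein. ESRP1 and ESRP2 are RNA-binding proteins that set the epithelial pattern of alternative splicing. Simple epithelia build their intermediate filaments from pairs of a type II keratin (KRT7 or KRT8) and a type I keratin (KRT18 or KRT19). NKX2-1 is the homeodomain factor on which lung epithelial identity depends, PRDM16 and PRDM3 are related zinc-finger proteins of the PR-domain family, and H3K4me3 is a mark of active or poised promoters. The series set out to map where the 3 proteins bind in fetal lung epithelium.

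The sequence upstream of the annotated start was present in the RefSeq promoter table (GRCm38.p6, the assembly of mm10) for 4 of the 8 genes, Epcam, Krt7, Krt8 and Krt18. The 250 bases before each start are shown because H3K4me3 peaks of all 3 libraries overlapped all 4 windows, and the 4 genes include the divergent neighbours Krt8 and Krt18. They are written 5′ to 3′ on the strand of the gene, with capitals marking CACCTG, the E-box that ZEB and SNAI repressors recognise, and GGGCGG, the GC box, each on either strand.
Epcam, chr17:87635729-87635978, plus strand: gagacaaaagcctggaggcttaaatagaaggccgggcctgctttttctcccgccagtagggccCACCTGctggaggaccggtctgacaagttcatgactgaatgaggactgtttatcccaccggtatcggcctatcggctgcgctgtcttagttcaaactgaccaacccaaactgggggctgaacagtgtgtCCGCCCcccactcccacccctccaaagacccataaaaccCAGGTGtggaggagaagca
Krt7, chr15:101412153-101412402, plus strand: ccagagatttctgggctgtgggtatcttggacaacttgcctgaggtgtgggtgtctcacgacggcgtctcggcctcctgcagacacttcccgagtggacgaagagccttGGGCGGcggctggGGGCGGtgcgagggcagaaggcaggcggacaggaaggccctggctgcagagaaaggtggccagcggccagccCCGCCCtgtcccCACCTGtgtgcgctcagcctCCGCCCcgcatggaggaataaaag
Krt8, chr15:102004343-102004592, minus strand: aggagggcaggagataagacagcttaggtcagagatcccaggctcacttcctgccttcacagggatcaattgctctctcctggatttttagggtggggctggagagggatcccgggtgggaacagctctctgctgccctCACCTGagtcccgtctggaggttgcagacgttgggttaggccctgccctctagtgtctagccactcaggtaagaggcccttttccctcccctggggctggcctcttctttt
Krt18, chr15:102027966-102028215, plus strand: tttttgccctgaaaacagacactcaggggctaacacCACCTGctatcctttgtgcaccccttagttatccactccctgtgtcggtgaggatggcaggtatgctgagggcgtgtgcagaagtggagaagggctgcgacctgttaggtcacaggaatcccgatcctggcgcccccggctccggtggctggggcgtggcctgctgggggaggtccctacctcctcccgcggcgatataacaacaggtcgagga
CACCTG was present in 4 of 4 windows, against 17.2% of 32851 mouse promoter windows of the same length. It began at positions -187 and -19 in Epcam, -44 in Krt7, -111 in Krt8 and -214 in Krt18, counted from the annotated start. GGGCGG was found in the windows of Krt7 and Epcam, against 32.7% of all windows. CACTTG (the NKX2-1 core, 11.6% of all windows), AACNNGTT (grainyhead, 3.64%), AAGATAA (the PRDM3 and PRDM16 core, 3.1%) and TGTTTAC (forkhead, 3.17%) were found in 0 of the 4, on either strand. The motifs do not overlap one another in these windows. The matches are descriptions of the sequence, and their use by any factor was not measured. Peaks of both PRDM16 libraries and of NKX2-1 replicate 1 also overlapped all 4 windows. NKX2-1 replicate 2 overlapped the window of Krt18 alone, NKX2-1 replicate 3 those of Krt7 and Krt18, and PRDM3 those of Krt7, Krt8 and Krt18.

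Each of the 8 genes had H3K4me3 at exactly 1 of its annotated ends and had NKX2-1, PRDM16 and PRDM3 peaks there as well. A region counted as present at an end when it lay within 1 kb of either annotated end and was covered in at least 2 of 3 libraries (NKX2-1, H3K4me3), in both libraries (PRDM16) or in the 1 library (PRDM3). H3K4me3 was at an end of 8 of 8 genes, against 55.7% of all protein-coding genes. NKX2-1 was at 8 of 8, against 44.4%, PRDM16 at 8 of 8, against 48.9%, and PRDM3 at 8 of 8, against 47.9%. For the 4 genes of known strand the marked end was the annotated start. Peak strength below is the fold enrichment that the authors' peak caller gave, and is ranked only within its own list. The factor lists include many peaks with a q-value over 0.05, which matters for NKX2-1 and also for PRDM3. The strongest NKX2-1 peak at the marked end had q under 0.05 for 8 members in replicate 1, for 3 in replicate 2 and for 4 in replicate 3. A region present in at least 2 NKX2-1 libraries with q under 0.05 remained at an end of 5 members, against 28.9% of all genes. It was lost at Cdh1, Krt8 and Krt18. At a −log10 q of 5 or more none of the 8 kept one, against 6.12% of all genes. The strongest PRDM3 peak at the marked end had q under 0.05 for 6 members. Counting either end, 7 members kept PRDM3 with q under 0.05, all but Cdh1, against 34.8% of all genes.

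Set beside all genes with a peak at an end, the members had stronger and longer PRDM16 and PRDM3 peaks and longer H3K4me3 peaks. These are given here as medians without a test. The median fold enrichment of the strongest end peak was 11.6 in PRDM16 replicate 1 and 7.03 in replicate 2 for the members, against 6.3 and 4.56 for all genes with such a peak. In PRDM3 it was 5.96, against 4.26 for all genes. NKX2-1 differed between replicates, with 8.79 for the members against 6.06 for all genes in replicate 1, 3.26 against 3.3 in replicate 2 and 3.77 against 4 in replicate 3. The higher NKX2-1 value was thus present in replicate 1 and not in replicates 2 and 3. Median H3K4me3 fold enrichment was 18.9, 52.7 and 45.8 in replicates 1 to 3 for the members, against 18.8, 38.3 and 32.1 for all genes. Median H3K4me3 peak length was 3488, 3472 and 3043 bases for the members, against 1898, 1706 and 1591 bases for all genes. The members' peaks were thus longer in all 3 libraries. Greater length was not particular to the mark. It was 2420 and 2065 bases in PRDM16, against 915 and 703, and 1272 in PRDM3, against 609. In NKX2-1 it was 2000 against 1055 in replicate 1, 465 against 433 in replicate 2 and 406 against 497 in replicate 3.

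**Figure D1:**
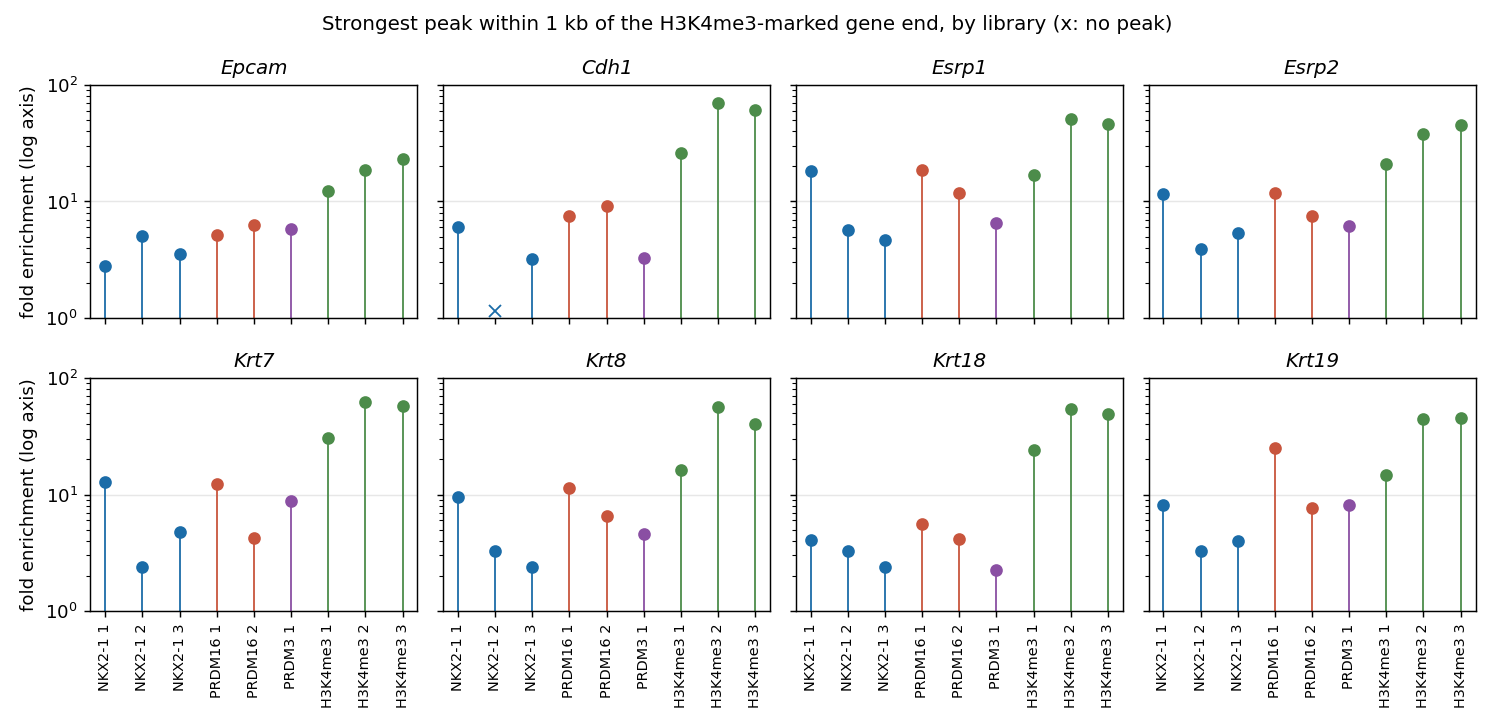
Fold enrichment (log axis) of the strongest peak within 1 kb of the H3K4me3-marked end of each gene, 1 point per library, with a cross where no peak was listed. Esrp1 has the highest NKX2-1 value in replicate 1 (18.42), Krt19 the highest PRDM16 value in replicate 1 (25.19), and Cdh1 has no peak in NKX2-1 replicate 2.

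Epcam, on chr17:87635979-87651127 (mm10, the build of all coordinates here), encodes the surface protein by which the cells were selected. Its H3K4me3 peak at the start had fold enrichments of 12.34, 18.76 and 22.96 in replicates 1 to 3, the lowest of the 8 genes in each library. Among all peaks of their lists these lay at the 55.3, 65.8 and 56.7 percent rank, counted from the strongest. NKX2-1 peaks at the start had 2.79, 5.1 and 3.54, and here replicate 2 was the strongest, with rank 1422, against rank 43048 in replicate 1. PRDM16 had 5.16 and 6.31, and PRDM3 had 5.79. The region covered by all 3 factors spanned 369 bases, chr17:87636272-87636640, inside the gene with its midpoint 477 bases from the start.

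Epcam also had a pair of H3K4me3 regions 22626 and 26114 bases upstream of its start, chr17:87612774-87613933 and chr17:87609692-87610038. Both lay within 1 kb of the noncoding gene Gm46609. PRDM16 and PRDM3 regions overlapped both of these, with PRDM16 fold enrichments of 4.9 and 3.36 at the nearer and 6.47 and 4.45 at the farther one. Neither had an NKX2-1 region, since replicate 1 alone had a peak at the nearer (4.75) and replicate 3 alone at the farther (3.2).

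Cdh1, on chr8:106603350-106670247, encodes E-cadherin. Its H3K4me3 peak at the start had fold enrichments of 26.27, 70.55 and 60.44, and the values of replicates 2 and 3 were the highest of the 8 genes, at ranks 753 and 446. At this start NKX2-1 had 6.08 in replicate 1, no peak in replicate 2 and 3.2 in replicate 3, PRDM16 had 7.44 and 9.15, and PRDM3 had 3.27. Of the 103 linked factor peaks of Cdh1, 11 overlapped H3K4me3 and 92 did not, so that 10.7% were over the mark. That was the lowest share of the 8 genes, whose others ran between 30% for Esrp1 and 65% for Krt7.

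The strongest peak linked to Cdh1 lay inside the gene and outside H3K4me3 in all 6 factor libraries. The region covered by NKX2-1, PRDM16 and PRDM3 was chr8:106646663-106647532, 23150 bases from the annotated end opposite to the H3K4me3 peak. NKX2-1 had fold enrichments of 8.45, 6.51 and 4.79 there, at ranks 4190, 416 and 2803. PRDM16 had 16.17 and 9.47, at ranks 954 and 1753, and PRDM3 had 8.95, at rank 793. This was the one member region shared by the 3 factors that was kept at a −log10 q of 5 or more. The gene table has no exons, so the region can be placed only inside the gene. Another shared region outside H3K4me3 lay 21782 bases upstream of the start, chr8:106581425-106581712, with NKX2-1 peaks of 7.04 in replicate 1 and 2.83 in replicate 3 and none in replicate 2, PRDM16 peaks of 7.68 and 4.2, and a PRDM3 peak of 3.9.

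Between these landmarks Cdh1 had 8 regions of PRDM16 and PRDM3 without an NKX2-1 region, all inside the gene and outside H3K4me3, and 6 regions of PRDM16 alone. Over the 8 genes there were 13 regions of PRDM16 and PRDM3 without an NKX2-1 region. Of these, 12 had a peak in NKX2-1 replicate 1, 0 in replicate 2 and 1 in replicate 3. All 13 thus had a peak in a single NKX2-1 library and missed the rule of 2 libraries. They are described as lacking a replicated NKX2-1 region, not as lacking NKX2-1. The same holds for the regions of PRDM16 alone. Some of those had a peak of a single NKX2-1 library, such as 5.97 in replicate 1 at chr8:106585190-106585701. PRDM16 replicates 1 and 2 listed 29 and 28 linked peaks at Cdh1, PRDM3 listed 17, and the NKX2-1 replicates listed 17, 4 and 8.

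**Figure D2:**
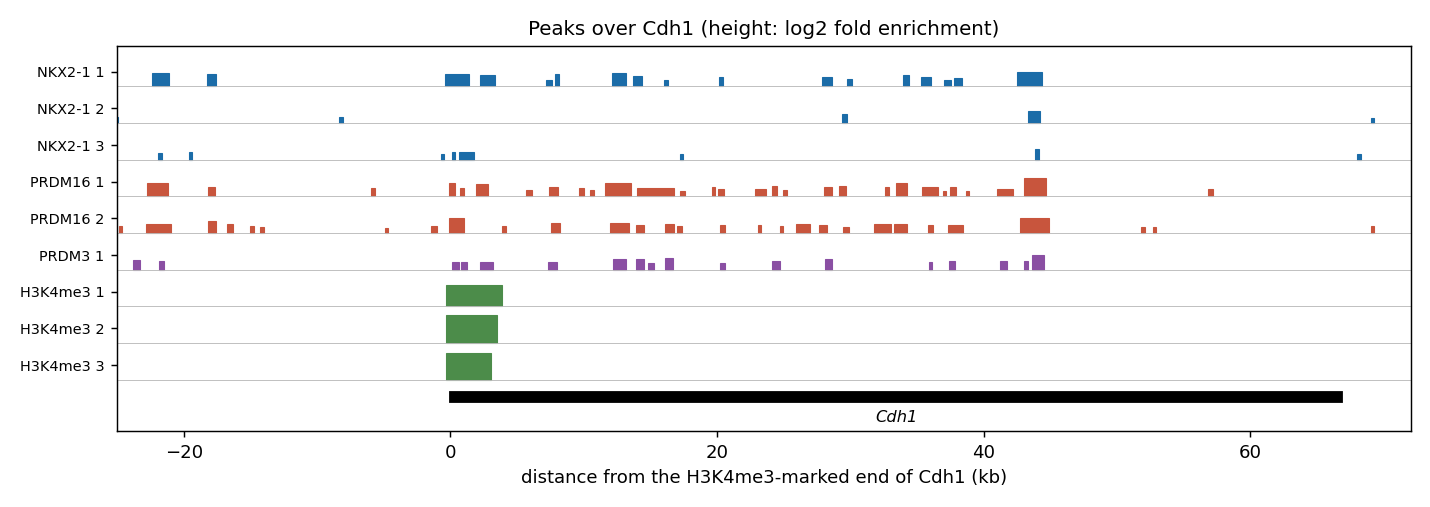
Peaks of the 9 libraries over Cdh1, by distance from its H3K4me3-marked end in kb, with bar height in proportion to the log2 fold enrichment. The H3K4me3 peaks are confined to the marked end in this panel, whereas factor peaks are spread through the gene. The tallest shown in each of the 6 factor libraries overlap the shared region inside the gene. Stronger peaks nearest to other genes lie beyond the panel, such as 16.33 in PRDM16 replicate 2 near Cdh3 and 24.51 in replicate 1 near Tango6.

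Esrp1, on chr4:11331933-11386783, had the strongest NKX2-1 peak at a marked end among the 8 genes in replicates 1 and 2. The values were 18.42, 5.7 and 4.71 in replicates 1 to 3, at ranks 180, 811 and 4355. PRDM16 had 18.56 and 11.74, at ranks 574 and 705, and PRDM3 had 6.58, at rank 2914. The peaks in NKX2-1 replicate 1 and both PRDM16 libraries were among the strongest 1% of their lists, at 0.341%, 0.515% and 0.892%. H3K4me3 had 16.83, 51.3 and 46.32, in peaks of 5636, 4688 and 4611 bases. One shared region, chr4:11385267-11386155, lay inside the gene and another, chr4:11386443-11389027, spanned the gene end, and both overlapped H3K4me3. The noncoding gene Gm35631 lies within 1 kb of both regions, so the peaks cannot be assigned to 1 of the genes.

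Esrp2, on chr8:106130319-106137193, had NKX2-1 fold enrichments of 11.62, 3.93 and 5.35, PRDM16 of 11.85 and 7.46, and PRDM3 of 6.12 at its marked end. H3K4me3 had 21.03, 38.14 and 45.36 there, in peaks of 4958, 4958 and 4635 bases. Compared with Esrp1, the paralogue was lower for NKX2-1 in replicates 1 and 2 and higher in replicate 3, and lower in both PRDM16 libraries and in PRDM3. With 1 value per library and no test, this is a description of the lists. Its 3 shared regions all overlapped H3K4me3. A region of PRDM16 and PRDM3 lay outside the mark at chr8:106140689-106141212, 3757 bases beyond the marked end, with PRDM16 peaks of 10.62 and 3.85 and a PRDM3 peak of 2.92. The opposite end of Esrp2 is 218 bases from an end of Nfatc3, and the noncoding gene 1810019D21Rik lies within 1 kb of the shared regions.

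Krt7, the type II keratin on chr15:101412403-101427806, had the highest H3K4me3 value at a marked end of the 8 genes in replicate 1. The values were 30.71, 62.33 and 57.26. PRDM3 had 8.82 at rank 830, the highest PRDM3 value at a marked end, though linked peaks away from the ends of Krt18 (10.92) and Cdh1 (8.95) were stronger. NKX2-1 had 12.89, 2.4 and 4.73, and the low value of replicate 2 had a −log10 q of 0.06. PRDM16 had 12.19 in replicate 1 and 4.26 in replicate 2. The 3 shared regions had their midpoints 1265 and 537 bases upstream of the start and 57 bases inside the gene, all over H3K4me3. Of 20 linked factor peaks, 13 overlapped H3K4me3, the highest share of the 8 genes. The gene Gm671 lies within 1 kb of these regions.

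Krt8 and Krt18 encode a type II and type I pair that polymerise together, and their marked ends face each other on chromosome 15 across 23873 bases. Krt8 lies on chr15:101996711-102004342 and Krt18 on chr15:102028216-102032026. At the Krt8 start NKX2-1 had 9.53, 3.26 and 2.4, PRDM16 had 11.32 and 6.59, PRDM3 had 4.55, and H3K4me3 had 16.22, 56.58 and 39.88. At the Krt18 start NKX2-1 had 4.05, 3.26 and 2.4, PRDM16 had 5.53 and 4.14, PRDM3 had 2.25, and H3K4me3 had 24.2, 54.13 and 48.77. The PRDM16 and PRDM3 values at the Krt18 start were lower than those at the Krt8 start in all 3 libraries, while H3K4me3 was higher at Krt18 in replicates 1 and 3. At the Krt18 start the −log10 q was 0.28 in PRDM3, and 0.69 and 0.11 in NKX2-1 replicates 2 and 3, so these peaks had q over 0.05. The NKX2-1 peaks of replicates 2 and 3 at the Krt8 start had the same −log10 q values of 0.69 and 0.11.

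The strongest factor peaks between these keratin genes lay midway, outside H3K4me3. They stood about equally far from both genes. The peak of PRDM16 replicate 2, chr15:102015843-102018531, had its summit 12345 bases from the Krt8 start and 11529 bases from the Krt18 start. It had a fold enrichment of 14.67 and rank 241 of 79072, at 0.305%. PRDM16 replicate 1 had 15.26 there, at rank 1220 of 111489, and PRDM3 had 10.92, at rank 292 of 52283. NKX2-1 had 9.36, 4.07 and 4, at ranks 3210, 3331 and 5431, and the −log10 q was 14.96, 1.61 and 1.69, so q was under 0.05 in all 3. By nearest end this stretch is linked to Krt18, where the strongest linked peak of all 6 factor libraries lay in it. The link follows the midpoints of the peaks and is one of position only. The noncoding gene Gm41404 lies within 1 kb of the main shared region, chr15:102016396-102017219.

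A second shared region outside H3K4me3 lay nearer to Krt8, chr15:102013735-102014166, 9608 bases from its start. It had PRDM16 peaks of 8.6 and 10.06, a PRDM3 peak of 8.82 at rank 830, and NKX2-1 peaks of 5.43, 2.44 and 2.4. The NKX2-1 values of replicates 2 and 3 had a −log10 q of 0.06 and 0.11. In PRDM16 replicate 2 and PRDM3 this region held the strongest peak linked to Krt8, above the peak at the Krt8 start. A further shared region 2483 bases upstream of Krt18, chr15:102025511-102025956, overlapped a weak H3K4me3 peak of 4.63 in replicate 1 and 6.08 in replicate 2. The other end of Krt8 is 87 bases from an end of Krt78, a keratin of stratified epithelium.

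**Figure D3:**
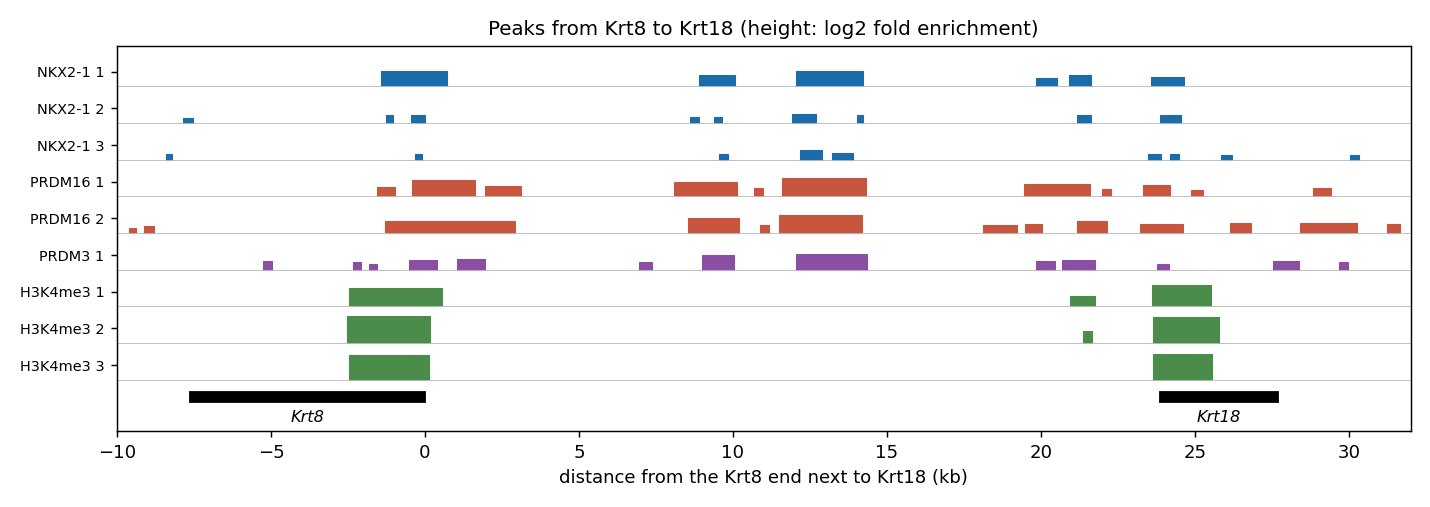
Peaks of the 9 libraries from Krt8 to Krt18, by distance in kb from the Krt8 end that faces Krt18, with bar height in proportion to the log2 fold enrichment. H3K4me3 stands mainly at the facing ends, and the tallest peaks of PRDM16, PRDM3 and NKX2-1 in the interval lie midway between them, where no H3K4me3 peak is listed.

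Krt19, the type I keratin on chr11:100140810-100145926, had the strongest PRDM16 peak at a marked end among the 8 genes in replicate 1, with a fold enrichment of 25.19 at rank 159 of 111489. Replicate 2, made with the sheep antibody, had 7.6 at rank 4209 of 79072. PRDM3 had 8.09 at rank 1281, and NKX2-1 had 8.06, 3.26 and 4. H3K4me3 had 14.6, 44.4 and 45.33. The shared regions, chr11:100145064-100145193 and chr11:100146089-100146554, both overlapped H3K4me3. Without NKX2-1 replicate 1 Krt19 had no NKX2-1 region left, since replicates 2 and 3 had their peaks on opposite sides of the gene end. A region of PRDM16 and PRDM3 outside H3K4me3 lay 1557 bases beyond the opposite end, chr11:100138738-100139768, with PRDM16 peaks of 6.45 and 5.33 and a PRDM3 peak of 5.43.

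Placed side by side, the 8 genes fell into different arrangements of their strongest factor peaks. For Epcam, Esrp1, Esrp2, Krt7 and Krt19, the strongest linked peak overlapped H3K4me3 in all 6 factor libraries. In NKX2-1 replicate 1 (4.75) and PRDM16 replicate 1 (6.47), that of Epcam lay at the upstream H3K4me3 regions near Gm46609, not at its start. For Cdh1 and Krt18 the strongest linked peak lay outside H3K4me3 in all 6. For Krt8 it overlapped H3K4me3 in 4 and lay outside in 2. Among the 4, NKX2-1 replicate 3 had a tie at 2.4 between a peak over the mark and a peak outside it. All 8 genes had a linked NKX2-1 region, against 51.3% of protein-coding genes, a linked PRDM16 region, against 59.1%, and a linked PRDM3 region, against 67.2%. All 8 also had a linked region shared by the 3 factors, against 35.1%. A shared region outside H3K4me3 was linked to 3 of 8 genes, Cdh1, Krt8 and Krt18, against 7.83% of all protein-coding genes, and the regions of Krt8 and Krt18 stand in the same interval. Without a test these shares are descriptions of the 8 genes.

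Over the 8 genes there were 22 regions shared by the 3 factors, 16 over and 6 outside H3K4me3. Several of these are pieces under 1 peak, so they are not a count of separate sites. The 3 outside H3K4me3 that are linked to Krt18 share their peaks in NKX2-1 replicate 1, PRDM16 and PRDM3. Of the 16 regions of PRDM16 alone, meaning without a replicated NKX2-1 region or a PRDM3 region, 14 lay outside the mark. So did 11 of the 13 regions of PRDM16 and PRDM3 without a replicated NKX2-1 region. Cdh1 held 6 of the 16 and 8 of the 13. There was 1 region of NKX2-1 and PRDM16 without PRDM3, at Krt8, and 0 of NKX2-1 without PRDM16. Over the whole genome 75.9% of shared regions overlapped H3K4me3, against 65.9% of all NKX2-1, 40.6% of all PRDM16 and 31.4% of all PRDM3 regions. No such share was computed for regions of PRDM16 alone or of PRDM16 with PRDM3, so those counts have no comparator here.

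**Figure D4:**
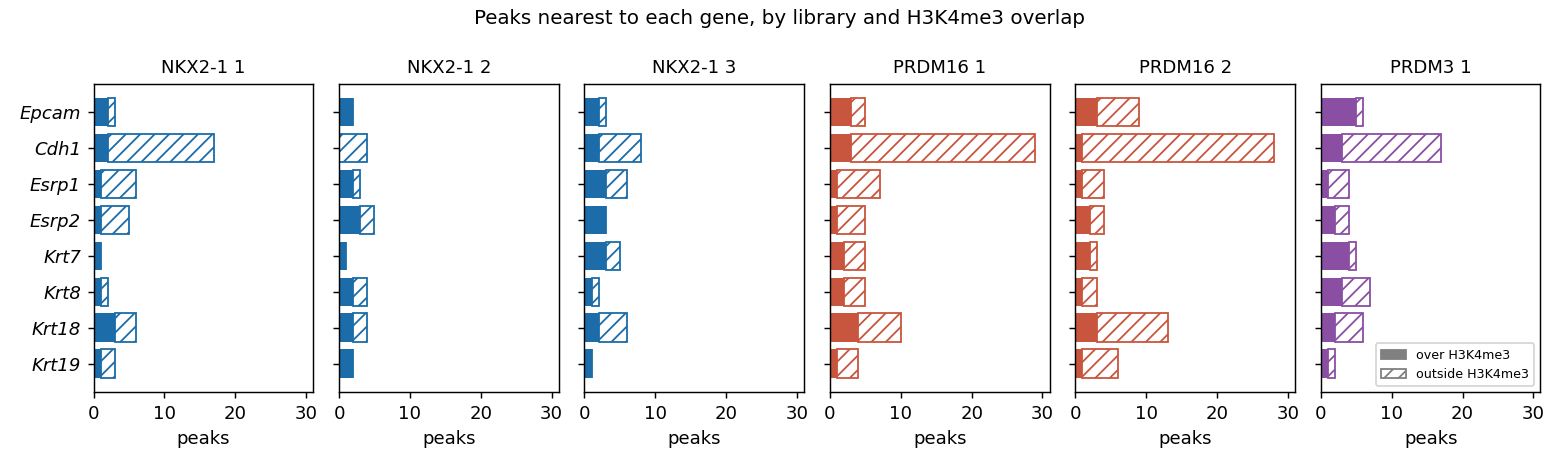
Number of peaks linked to each gene in each factor library, with filled bars for peaks over H3K4me3 and hatched bars for peaks outside it. Cdh1 has the longest bars in 5 of the 6 libraries, nearly all hatched.

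Counting every factor peak in the gene and its flanks, whatever gene was nearest, Krt18 and Krt8 had 11.1 and 10.9 peaks per 10 kb over the 6 factor libraries. Their windows overlap and share most of these peaks. Cdh1 had 8.75, Krt7 5.37, Esrp2 5.15, Krt19 4.47, Epcam 3.3 and Esrp1 2.52. The median over all protein-coding genes was 2.5, with quartiles of 1.25 and 3.89, so 6 of 8 members were above the upper quartile. Esrp1, with the strongest NKX2-1 peak at a marked end in replicates 1 and 2, was the member with the fewest peaks around it for its length.

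Related genes, chosen with earlier results of these data known, were counted in the same way. Of 24 other keratins, most of them of stratified epithelia or hair, H3K4me3 was at an end of 2 (Krt1 and Krt10) and NKX2-1 of 2 (Krt10 and Krt80). PRDM16 was at an end of 6 and PRDM3 of 2, and each of these counts was below the share of all genes given above. A linked shared region was found for 4 (Krt10, Krt23, Krt78 and Krt80). For 3 of the 24 (Krt23, Krt78 and Krt80) a shared region lay outside H3K4me3, against 7.83% of all genes. Krt78 adjoins Krt8, and peaks nearest to Krt80 lie in the window of Krt7. Krt5 and Krt14, the basal cell keratins, had no region of any kind at an end and no shared region. Among 14 junction and desmosome genes, most of whose products anchor E-cadherin or keratin filaments, H3K4me3 was at an end of 12, NKX2-1 of 10, PRDM16 of 9 and PRDM3 of 10, and 11 had a shared region, including Dsp, Jup and Ppl. Of 6 genes whose transcripts ESRP proteins splice, 5 had a shared region (Fgfr2, Enah, Ctnnd1, Arhgef11 and Scrib) and Cd44 had none. Of 6 repressors of the epithelial state, H3K4me3 was at an end of 4 (Zeb1, Zeb2, Snai2 and Twist1), 0 had a shared region, and NKX2-1 regions were linked to 5. Among all genes the shares were 55.7%, 44.4%, 48.9% and 47.9% for H3K4me3, NKX2-1, PRDM16 and PRDM3 at an end. They were 35.1% for a shared region and 51.3% for a linked NKX2-1 region. Ctnnd1 is in both the junction and the ESRP list. These short lists were not tested.

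The peak lists held between 14646 and 111489 peaks, and the read depth behind them is unknown. NKX2-1 replicate 1 shares a series of peak names with PRDM16, PRDM3 and H3K4me3 replicate 1, while replicates 2 and 3 of NKX2-1 and H3K4me3 share another. What the name series stand for is not stated in the labels, and NKX2-1 strength cannot be told apart from it. For the selected cell type, 7 of 8 epithelial marker genes had H3K4me3 at an end (all but Cldn18), against 55.7% of all protein-coding genes. So did 5 of 10 mesenchymal marker genes (among them Vim and Col1a1), which is near that share. The counts were 2 of 7 endothelial (Kdr and Cldn5) and 1 of 7 immune marker genes (Spi1), below it. The lists are short and were not tested. The part of other cells in the peaks described here was not tested.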

How the data were processed

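CUT&RUN peak lists of 9 libraries were used as deposited, 1 list per library, and the 3 IgG samples were not analysed here. The submitters' processing notes name mm10 as build and Trimmomatic, Bowtie2, HOMER and MACS2 as tools. Versions, settings and the use of any control library in peak calling are not given in the sources used here. Fold enrichment, as deposited, is a ratio of signal to background from the authors' peak caller. The −log10 p, −log10 q and score columns are also as the authors deposited them. Read depth is unknown, and no interval is given.

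Genes came from RefSeq for GRCm38.p6, without strand or exons. Regions had at least 20 bases. A region or peak was linked to the protein-coding gene with the end nearest to its midpoint, within 50 kb of the gene. Overlap meant at least 1 shared base, and outside H3K4me3 meant no overlap with a peak of any of the 3 libraries. The marked end of a gene is the end with an H3K4me3 region within 1 kb, a choice made after seeing the data. A density of factor peaks per 10 kb over all protein-coding genes was added then as well. Members and lists were chosen with earlier results of these data known, and all 8 members are named. No test was run. Replicates are separate libraries of pooled animals, and nothing says that they came from separate pools. The interval functions were tested on simulated data. Python 3.11.15, numpy 2.4.6, pandas 2.3.3 and matplotlib 3.10.9 were used.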

Additional observations from a re-analysis of the deposited data

How the results depend on the processing

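Of 79 alternative counts of members, 72 stayed within 1.5 times the main count. The other 7 came from stricter peak lists. Some of the 79 loosened a rule, such as ends within 5 kb or a peak of either PRDM16 library. These could not lower a count, so their agreement carries no weight. At a −log10 q of 5 or more, members with an end region numbered 0 for NKX2-1, 5 for PRDM16 and 4 for PRDM3. The shares of all protein-coding genes were then 6.12%, 20% and 11.3%. A linked NKX2-1 region and a linked shared region were then left at 1 member, Cdh1, as was a shared region outside H3K4me3. For these the shares of all genes were 6.09%, 2.68% and 0.192%. With q under 0.05, 5 members kept NKX2-1 at an end, 8 kept PRDM16 and 7 kept PRDM3. The shares of all genes were 28.9%, 40.4% and 34.8%. Fewer peaks, above all in NKX2-1 replicates 2 and 3, enter by construction. Leaving out 1 library gave 6 to 8 members with NKX2-1 at an end (Cdh1 and Krt19 lost without NKX2-1 replicate 1, Cdh1 without replicate 3), 7 to 8 with a linked NKX2-1 or shared region (Krt19 lost without replicate 1), 3 with a shared region outside H3K4me3, and 8 for H3K4me3 at an end, PRDM16 at an end and a linked PRDM16 region. Without a PRDM16 library, a peak in the 1 that remained was enough, which is a looser rule, so the PRDM16 counts of 8 could not fall. PRDM3 has 1 library, so its counts have no such alternative. Among all genes, leaving out 1 library gave 27.1% to 38.9% with NKX2-1 at an end and 31.3% to 44.3% with a linked NKX2-1 region. It gave 21.5% to 38.6% with a shared region and 2.45% to 9% with one outside H3K4me3. The shares were 53.9% to 55.2% for H3K4me3 at an end, 56.2% and 63.1% for PRDM16 at an end, and 71.7% and 81.6% for a linked PRDM16 region. The 5′ end alone could not be used for all 8 genes, since the strand was given for 4. No paired analysis was possible because no result comes from a test.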
